A study of Bos taurus with 17 samples.

Results

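Lipoprotein receptors and cholesterol transporters were examined at 3 stages in bovine cumulus cells, the layers of somatic cells around the oocyte. The group holds 9 genes: the receptors SCARB1, VLDLR and LRP8, the lysosomal proteins LIPA, NPC1 and NPC2, the exporters ABCA1 and ABCG1, and the apolipoprotein APOE. Their probes were those that the array's design names with the gene's symbol, or through the description where the name is only a locus number. This gave 10 of the 21475 probes of the array, 1 for each gene and a second one for LIPA. The ABCA1 probe bears the name of an expressed sequence tag in place of a symbol and was taken through its description. A further probe described as lipase A belongs by its gene number to the related gene LIPN, was not well above background on any array, and was left out.

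NC1 samples came from 6 prepubertal calves aged 3 to 6 months, C1 samples from 6 adult cows of different ages, and C2 samples from 5 non-lactating Holstein cows aged 3 to 5 years. NC1 and C1 cells surrounded prophase I oocytes, which are labelled developmentally incompetent at NC1 stage, a stage that the study's definition extends to poorly competent oocytes, and competent at C1 stage. They were taken after slaughter, from small follicles and with a compact cumulus. C2 cells surrounded metaphase II oocytes, had an expanded cumulus and were taken by ovum pick up from large follicles, after progestagen implants, superovulation with an FSH/LH preparation and prostaglandin F2α. NC1 and C1 therefore differ by the age of the animal as well as by the stage, and hormone treatment, follicle size and way of collection changed with it between C1 and C2. These causes cannot be told apart in this design. Each sample was hybridised to 1 Agilent bovine 1-colour array.

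Steroid-producing follicle cells obtain cholesterol from lipoproteins of the blood and of the follicular fluid, as well as by their own synthesis. SCARB1 binds high-density lipoprotein and lets the cell take up its cholesterol esters without swallowing the particle, while VLDLR and LRP8 are related receptors that carry their ligands into endosomes. In the lysosome the acid lipase LIPA frees cholesterol from its esters, NPC2 picks it up and NPC1 passes it on through the membrane. ABCA1 and ABCG1 move cholesterol out of the cell to apolipoprotein A-I and to high-density lipoprotein. APOE is carried by lipoproteins and is a ligand of such endocytic receptors.

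Of the 10 probes, 9 have a sequence in the deposited table, each of 60 bases. The probes that carry the results below are those of SCARB1 and LIPA, shown because the level of a gene here is the level of the transcripts that hold these bases. Capitals mark the run AATAAA, the usual signal for cutting and polyadenylation, which was searched on the strand given. It occurred in 4 of the 9 probes, those of SCARB1, NPC2, APOE and the second one of LIPA, and in 14.3% of the 15256 probes of the table. The brighter LIPA probe does not hold it and is printed whole, and of the other probes the 30 bases around it are shown, as 5′ to 3′ of the array's design.
SCARB1 probe, bases 19 to 48: cacaattgaagtAATAAAcctttttaaaaa
LIPA second probe, bases 28 to 57: tttaaacttgtcAATAAAactcagcctccc
LIPA brighter probe, bases 1 to 60: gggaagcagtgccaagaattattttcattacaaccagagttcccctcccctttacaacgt
The SCARB1 probe is poor in G and C, which make up 18.3% of its bases against 45% in the brighter LIPA probe and a median of 43.3% over all probes with a sequence.

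Levels are given as log2 of the scaled signal, where 0 is the median probe of the array, and the level of a probe is not compared with that of another probe. The arrays had median signals of 64.2 to 208 intensity units, and 66.2% to 82.8% of the probes were well above background. A probe was called valid, and tested, if each stage had it present on 80% or more of its arrays. That left 13865 probes, among them 9 probes of 8 of the 9 genes. The ABCA1 probe failed the rule and is given by its levels and from a fit without a filter. Scans of the 17 arrays, from 6 slides, fall on 2 days. The stage labels can be set against markers of cumulus expansion, of which 13 were on the array and 8 were valid. Of these 8, 7 rose and 1 fell at C2 stage against C1, where 15.3% of all valid probes rose and 12.8% fell. Of those not valid, AREG was well above background on 5 C2 arrays, ITIH3 on 4, SULT1E1 on 2, CD44 on 1 and TNFAIP3 on 0. Of 15 granulosa and cumulus markers, 14 were valid and all 15 were well above background on every NC1 and C1 array. C2 arrays fell into close pairs, replicates 1 and 5 and replicates 3 and 4. The SD of the log2 difference was 0.44 and 0.51 within these pairs and 1.05 to 1.27 between the other C2 arrays, against 0.43 to 0.76 between any arrays of one of the other stages. Since this sets the error of most values below, the C2 arrays are given one by one. Precision is limited by how few arrays there are.

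SCARB1 was the member that rose most at C2 stage. Its level was lowest at NC1 stage, from -0.93 to -0.01 with a median of -0.62, and at C1 stage ran from -0.74 to 0.87 with a median of -0.33. The C2 arrays were at 1.70, 2.98, 2.83, 3.66 and 2.12 in the order of replicates 1 to 5. All 5 lay above every C1 and every NC1 array, while the ranges of C1 and NC1 overlapped. The difference between C2 and C1 was 2.78 on the log2 scale (SE 0.33), a 6.89-fold higher signal (adjusted p = 2.43e-06, limma's moderated test with Benjamini-Hochberg adjustment over all valid probes, as for every adjusted p below). Against NC1 it was 3.25 (SE 0.33), 9.50-fold (adjusted p = 4.18e-07). The 2-sided exact permutation test over the arrays gave p = 0.00433 in both comparisons, the smallest that 5 arrays against 6 allow. C1 and NC1 differed by 0.46 with a 95% confidence interval from -0.19 to 1.12 (adjusted p = 0.684). With the arrays of scan day 1 alone SCARB1 was higher by 2.59 at C2 than at C1 stage, and with those of scan day 2 alone by 3.17, and both passed the threshold. Over all 34 alternatives the difference from C1 ran from 2.27 to 3.17 and kept its call. In these samples of many cells, more RNA per cell and more cells of a type cannot be told apart.

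**Figure D1:**
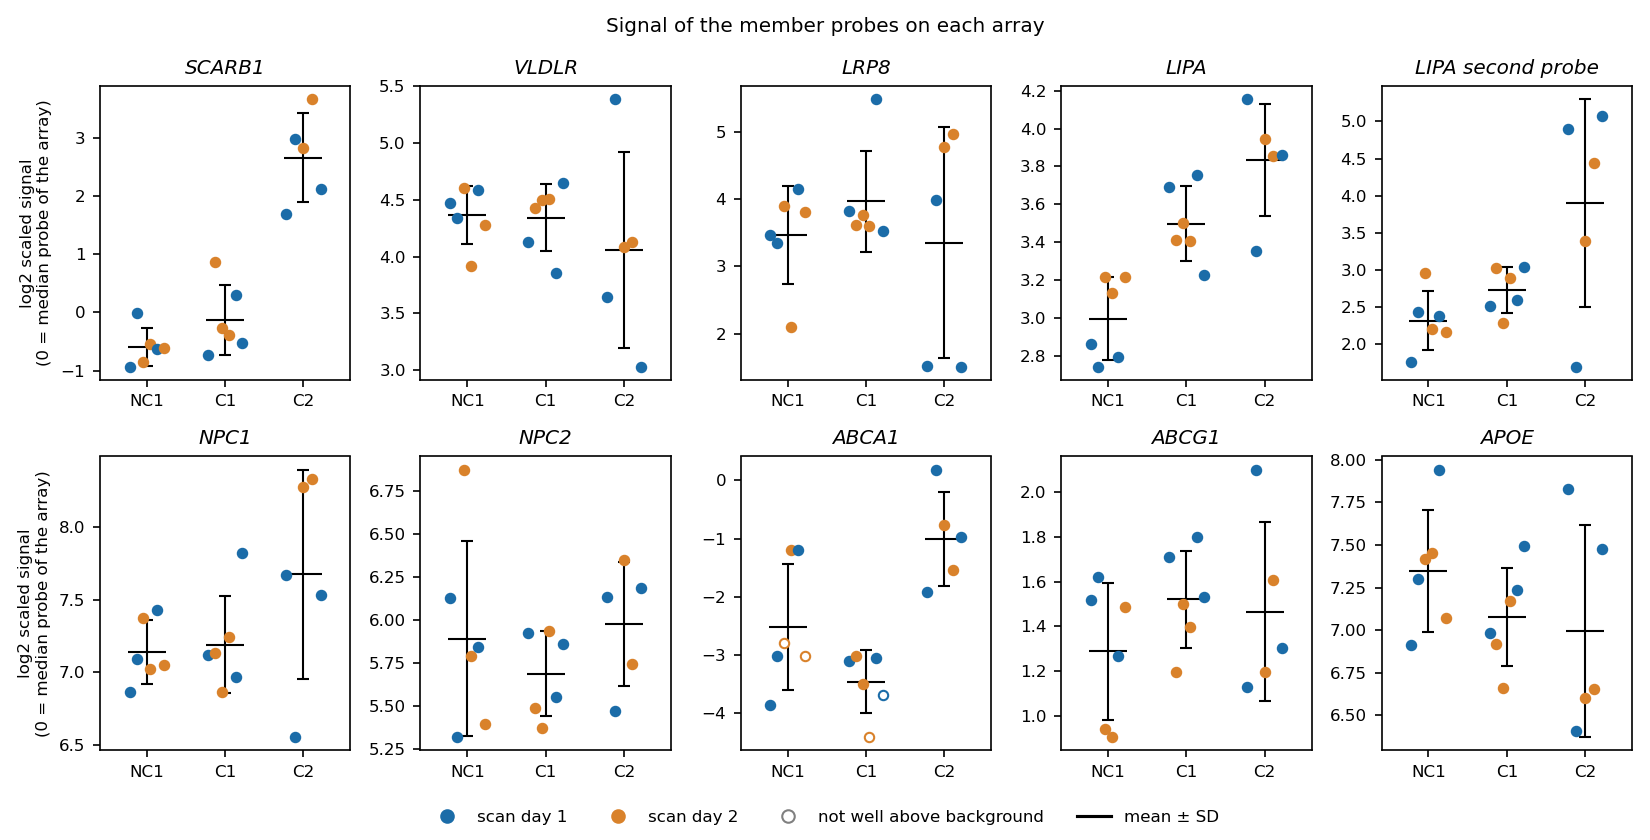
Log2 scaled signal of the 10 member probes (vertical axis, 0 is the median probe of the array) on each of the 17 arrays, by stage, with the mean and SD of the stage as bars, the scan day as colour, and open circles where the probe was not well above background. The C2 arrays of SCARB1 lie between 1.70 and 3.66, above all others, while for LRP8 2 C2 arrays lie at 1.52 and 1.51 and 2 others at 4.77 and 4.97.

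VLDLR and LRP8 did not follow SCARB1. VLDLR, which takes up triglyceride-rich particles and also binds reelin, had levels from 3.92 to 4.60 at NC1 stage (median 4.41) and from 3.86 to 4.65 at C1 stage (median 4.46). Its C2 arrays were at 3.65, 5.39, 4.08, 4.13 and 3.03. They lay on both sides of the other arrays, with replicate 2 above and replicates 1 and 5 below all 12 of them. VLDLR differed by -0.29 between C2 and C1 (95% confidence interval -0.91 to 0.34, adjusted p = 0.468) and by -0.31 between C2 and NC1 (-0.94 to 0.32, adjusted p = 0.435). Between C1 and NC1 the difference was -0.02 (-0.62 to 0.57, adjusted p = 0.992).

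LRP8, the second reelin receptor and a receptor for APOE, was at 2.10 to 4.15 at NC1 stage (median 3.64) and at 3.53 to 5.48 at C1 stage (median 3.69). Its C2 arrays split more widely than those of any other member, with 1.52, 3.98, 4.77, 4.97 and 1.51 and an SD of 1.72, against 0.73 at NC1 and 0.75 at C1 stage. Replicates 1 and 5 lay below every C1 and NC1 array, and replicates 3 and 4 above every NC1 array. The mean difference was -0.62 from C1 (95% confidence interval -1.88 to 0.64, adjusted p = 0.435) and -0.11 from NC1 (-1.37 to 1.15, adjusted p = 0.905), so the arrays allow a change of either direction. The sign differed between the scan days. On scan day 1, which holds C2 replicates 1, 2 and 5, LRP8 was lower at C2 than at C1 stage by a log2 difference of -1.94 (adjusted p = 0.0763). On scan day 2, with C2 replicates 3 and 4, it was higher by 1.21 than at C1 stage (adjusted p = 0.0359) and by 1.60 than at NC1 stage (adjusted p = 0.00951). C2 replicate 2 was scanned with replicates 1 and 5 and had a level of 3.98. The close pairs of C2 arrays fall within the scan days, and the part of the day in this result was not tested. Between C1 and NC1 the difference was 0.51 (-0.69 to 1.71, adjusted p = 0.836).

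Among the lysosomal genes, LIPA was higher at C2 than at NC1 stage on both of its probes. On the brighter probe LIPA had levels of 2.75 to 3.22 at NC1 stage (median 3.00) and of 3.23 to 3.75 at C1 stage (median 3.46). The C2 arrays were at 4.15, 3.35, 3.95, 3.85 and 3.86. All C2 and all C1 arrays lay above all NC1 arrays, and 4 of the 5 C2 arrays lay above all C1 arrays, replicate 2 being the exception. The difference between C2 and NC1 was 0.84 (SE 0.17), a 1.79-fold higher signal (adjusted p = 0.000747, exact permutation p = 0.00433). It was 0.99 on scan day 1 alone (adjusted p = 0.0302) and 0.71 on scan day 2 alone (adjusted p = 0.0470), and neither passed the threshold of 0.01. C2 and C1 differed by 0.33 (95% confidence interval -0.02 to 0.69, adjusted p = 0.127).

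On its brighter probe LIPA also stood apart between the calf and cow samples with a compact cumulus, though not past the threshold. C1 exceeded NC1 by 0.50 on the log2 scale (95% confidence interval 0.16 to 0.84, adjusted p = 0.225). The lowest C1 array was at 3.23 and the highest NC1 array at 3.22, so the groups were separate by a small gap, which gave an exact permutation p of 0.00216, the smallest that 6 arrays against 6 allow. The arrays of both stages did not overlap for 2.1% of all valid probes. With limma's array weights the same difference was 0.58 and passed (adjusted p = 0.00908).

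The second LIPA probe gave the same order of the stage means with a wider spread. Its levels were 1.76 to 2.97 at NC1 stage (median 2.30) and 2.28 to 3.04 at C1 stage (median 2.75). The C2 arrays were at 4.90, 1.70, 3.39, 4.44 and 5.08, with 4 above every other array and replicate 2 below them all. It differed by 1.58 between C2 and NC1 (SE 0.44, adjusted p = 0.00800) and by 1.17 between C2 and C1 (SE 0.44, adjusted p = 0.0407). In both comparisons with C2 its differences were thus larger than those of the brighter probe at equal sign. Without C2 replicate 2 the difference from C1 was 1.73 and passed the threshold (adjusted p = 0.000148). Its call against NC1 was close to the threshold and was lost under 19 of 34 alternatives, among them the slide as a block, with an adjusted p of 0.0164. Of the arrays left out singly, all NC1 and C1 replicates but replicate 3 and the C2 replicates 1, 4 and 5 cost it the call, with differences of 1.29 to 1.61 and adjusted p up to 0.0263. Between C1 and NC1 the second probe differed by 0.41 (95% confidence interval -0.48 to 1.29, adjusted p = 0.818), less than the brighter probe did. On it the arrays of these stages overlapped.

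NPC1, the lysosomal membrane protein of cholesterol exit, had levels of 6.87 to 7.43 at NC1 stage (median 7.07) and of 6.86 to 7.82 at C1 stage (median 7.13). At C2 stage they were 7.67, 6.55, 8.28, 8.34 and 7.54. All C2 arrays but replicate 2 lay above all NC1 arrays, and replicates 3 and 4 also lay above all C1 arrays, whereas replicate 2 was the lowest of the 17. The difference was 0.48 from C1 (95% confidence interval -0.08 to 1.05, adjusted p = 0.160) and 0.54 from NC1 (-0.03 to 1.1, adjusted p = 0.120). Neither passed. Without C2 replicate 2 they were 0.76 (adjusted p = 0.00824) and 0.82 (adjusted p = 0.00551), and both passed. On scan day 2 alone, where replicate 2 is not, they were 1.23 (adjusted p = 0.00272) and 1.16 (adjusted p = 0.00471), and on scan day 1 alone -0.05 (adjusted p = 0.938) and 0.12 (adjusted p = 0.833). Between C1 and NC1 the difference was 0.05 (-0.48 to 0.59).

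NPC2, its soluble partner, overlapped at all stages. It was at 5.32 to 6.87 at NC1 stage (median 5.82), at 5.38 to 5.94 at C1 stage (median 5.71), and at 6.13, 5.48, 6.35, 5.74 and 6.19 on the C2 arrays. The differences were 0.29 between C2 and C1 (95% confidence interval -0.24 to 0.81, adjusted p = 0.379), 0.09 between C2 and NC1 (-0.44 to 0.61, adjusted p = 0.819) and -0.20 between C1 and NC1 (-0.70 to 0.30, adjusted p = 0.844).

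Of the exporters, ABCA1 was measured near the limit of the array. All 5 C2 arrays had its probe well above background, as had 4 of the 6 arrays of each other stage. Its levels were -3.85 to -1.19 at NC1 stage (median -2.90) and -4.40 to -3.01 at C1 stage (median -3.30). At C2 stage they were -1.91, 0.18, -0.77, -1.54 and -0.97, all above every C1 array, and 3 of 5 above every NC1 array. In the fit over all 21475 probes without a filter, C2 exceeded C1 by 2.45 (SE 0.47), 5.48-fold (adjusted p = 0.000525). In that fit 21.2% of all probes passed for this comparison, 20.5% between C2 and NC1 and 0.116% between C1 and NC1. The difference of C2 from NC1 was 1.51 (95% confidence interval 0.52 to 2.49, adjusted p = 0.0197), and that of C1 from NC1 was -0.95 (-1.88 to -0.01, adjusted p = 0.241). It was 1.77 without NC1 replicate 4 (adjusted p = 0.00693) and likewise 1.77 without NC1 replicate 5 (adjusted p = 0.00674), and then passed. On scan day 1 alone the difference from C1 was 2.37 and did not pass (adjusted p = 0.0427). The size depended on the background correction. With normexp correction C2 differed from C1 by 0.88, still past the threshold, and from NC1 by 0.38.

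ABCG1, named on the array by its locus number, did not separate the stages. Its levels were 0.90 to 1.62 at NC1 stage (median 1.38), 1.19 to 1.80 at C1 stage (median 1.51), and 1.13, 2.10, 1.19, 1.61 and 1.30 on the C2 arrays. It differed by -0.06 between C2 and C1 (95% confidence interval -0.48 to 0.37, adjusted p = 0.843), by 0.18 between C2 and NC1 (-0.25 to 0.60, adjusted p = 0.517) and by 0.23 between C1 and NC1 (-0.17 to 0.64, adjusted p = 0.756). These intervals leave out changes as large as that of SCARB1.

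APOE had levels of 6.91 to 7.94 at NC1 stage (median 7.36) and of 6.66 to 7.49 at C1 stage (median 7.08). The C2 arrays were at 7.83, 6.41, 6.60, 6.66 and 7.48, with replicates 1 and 5 among the high values and the other 3 below every NC1 array. The differences were -0.08 between C2 and C1 (95% confidence interval -0.62 to 0.46, adjusted p = 0.817), -0.35 between C2 and NC1 (-0.89 to 0.18, adjusted p = 0.291) and -0.27 between C1 and NC1 (-0.79 to 0.24, adjusted p = 0.782).

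In all, 1 of the 8 genes with a valid probe rose at C2 stage against C1 (SCARB1), where 28.1% of all valid probes passed in either direction and 15.3% in this one. Against NC1, 2 of 8 rose (SCARB1 and LIPA), where again 28.1% of all probes passed, and 15.5% rose. None of the 8 fell in either comparison, by limma or by an ordinary t-test, where 12.8% and 12.6% of all probes fell by limma. At an unadjusted p under 0.05, 1 of the 8 differed against C1 and 2 against NC1, and 0 of these were lower. In either direction, 6787 and 6731 of the 13865 valid probes were under that p. How many of these probes were lower was not counted. Between C1 and NC1 none of the 8 passed by limma or by an ordinary t-test, where 0.0577% of all probes did by limma. LIPA, 1 of the 8, had an unadjusted p under 0.05 there, as had 9.84% of all probes. By the moderated F over the 3 stages 2 of 8 passed, against 28.6% of all probes. C2 arrays did not overlap with C1 arrays for 1 of the 8 genes and 21.6% of the probes, and with NC1 arrays for 2 of the 8 and 20.9%. Arrays of C1 and NC1 did not overlap for 1 of the 8, LIPA, and 2.1% of the probes. Their median difference was 0.12 between C2 and C1, 0.13 between C2 and NC1 and 0.14 between C1 and NC1, beside medians of 0.02, 0.11 and 0.05 over all valid probes.

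**Figure D2:**
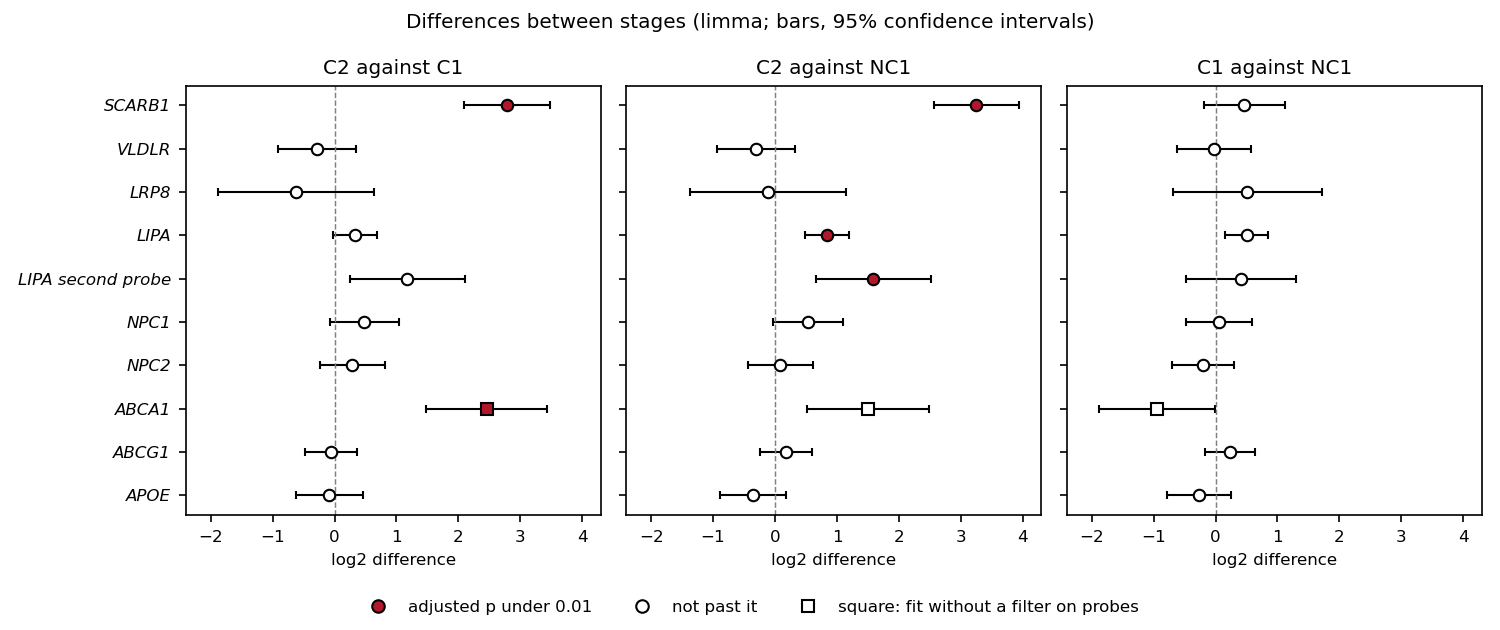
Log2 difference between stages for each member probe (horizontal axis) with its 95% confidence interval from limma, for the 3 comparisons, filled where the adjusted p was under 0.01. SCARB1 is filled in both comparisons with C2, and both LIPA probes in that of C2 with NC1. ABCA1 (square, fitted without a filter on probes) is filled in that of C2 with C1, and no symbol is filled between C1 and NC1.

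The C2 arrays differed among themselves in which members they held high. As differences from the mean of the C1 arrays, SCARB1 was at 1.82, 3.11, 2.95, 3.78 and 2.25 in replicates 1 to 5, above 0 on all 5 arrays. LRP8 was at -2.45, 0.01, 0.80, 1.00 and -2.46, so replicates 1 and 5 stood apart from the other 3. NPC1 was at 0.48, -0.64, 1.09, 1.14 and 0.34, and here replicate 2 stood apart. The same array was the lowest C2 array for LIPA on both probes, for NPC2 and for APOE, and the highest for VLDLR, ABCA1 and ABCG1. STAR, which carries cholesterol into the mitochondrion for steroid synthesis, was at 6.68 and 7.21 in replicates 1 and 5, and at -1.92, -0.11 and -1.02 in replicates 2, 3 and 4. The C2 arrays with the highest STAR were thus those with the lowest SCARB1, VLDLR and LRP8, and those with the highest APOE. With 5 arrays no test of such a relation was made.

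**Figure D3:**
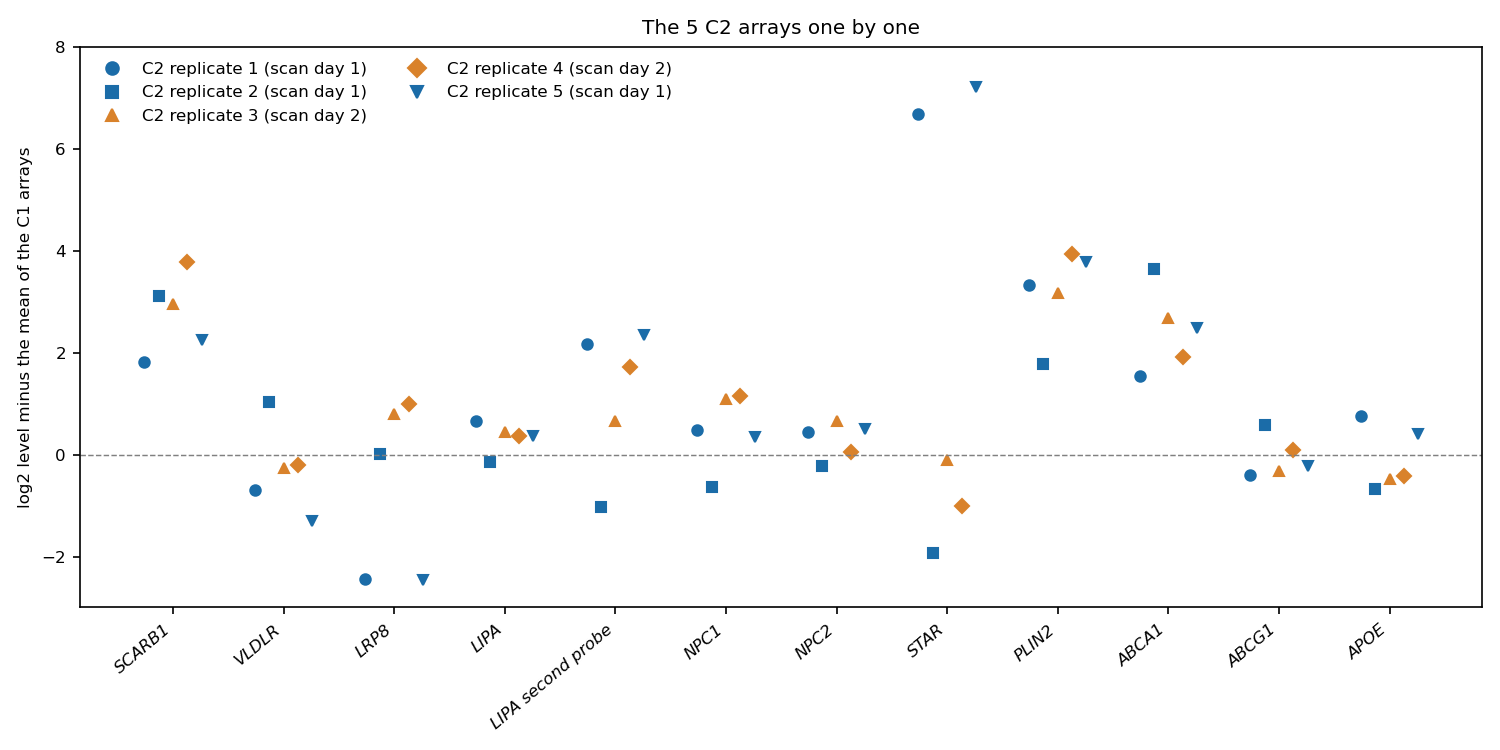
Log2 level of each C2 array minus the mean of the 6 C1 arrays (vertical axis) for the member probes and for STAR and PLIN2, with a symbol for each replicate and the scan day as colour. All 5 arrays lie above 0 for SCARB1, PLIN2 and ABCA1, while LRP8 and STAR split replicates 1 and 5 from the others in opposite directions.

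Other genes of cholesterol handling were taken from 4 lists of 108 symbols, of which 94 were on the array and 74 had a valid probe. The lists hold some genes under more than 1 symbol, as PLIN2 and ADFP or PLIN3 and M6PRBP1. Such a gene counts under a single symbol as on the array, so a symbol not found is not always a missing gene. At C2 stage against C1, 11 of the 74 rose and 8 fell, and against NC1 13 rose and 8 fell. With 75th percentile scaling the split was 11 to 11 against C1 and 11 to 12 against NC1, with quantile normalization 10 to 11 and 12 to 12, and with normexp correction 10 to 10 and 14 to 6. At the main setting the genes past the threshold are 25.7% and 28.4% of the list genes, beside 28.1% of all valid probes in both comparisons. None passed between C1 and NC1 by limma or by an ordinary t-test, and 4 of the 74 had an unadjusted p under 0.05, beside 9.84% of all probes. On scan day 1 alone 7 of the 74 passed in each comparison with C2, where 9.82% of all probes passed against C1 and 10.1% against NC1. Over all arrays the median difference of the 74 genes was 0.07 between C2 and C1 and 0.02 between C2 and NC1.

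In the list of lipoprotein uptake, 4 of the 19 tested genes reported here fell at C2 stage against C1. None of these 19 rose by limma or by an ordinary t-test. At an unadjusted p under 0.05, 10 of the 19 differed, 1 higher and 9 lower. In either direction, 6787 of the 13865 valid probes were under that p. The genes past the threshold were 21.1% of the 19 against C1 and 31.6% against NC1, beside 28.1% of all valid probes in both comparisons. MYLIP, a ubiquitin ligase that marks VLDLR and LRP8 for breakdown, fell by 2.00 on the log2 scale from C1 to C2 stage (SE 0.38, adjusted p = 0.000357). On scan day 1 alone its difference from C1 was -2.70, and on scan day 2 alone it was -1.0 and did not pass (adjusted p = 0.0526). From NC1 it fell by 2.43, and its second probe fell by 2.01 and 2.22 in the 2 comparisons. LRP4, a related receptor better known from the neuromuscular junction, fell by 2.49 against C1 (SE 0.25, adjusted p = 3.25e-07), with all C2 arrays under all others. The sorting receptor SORL1 fell by 1.29 (SE 0.19, adjusted p = 2.26e-05).

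PDZK1, an adaptor that holds SCARB1 at the liver cell's membrane, fell by 1.40 against NC1 (SE 0.36, adjusted p = 0.00423) but differed by -1.08 from C1 (adjusted p = 0.0210), which did not pass. The call against NC1 was lost without NC1 replicate 4 (-1.34, adjusted p = 0.0103), NC1 replicate 5 (-1.25, adjusted p = 0.0114) or C2 replicate 2 (-1.27, adjusted p = 0.0117), and that against C1 was gained without NC1 replicate 3 (adjusted p = 0.00746). Against NC1, 1 gene of this list rose and 5 fell. SCARB2, a lysosomal membrane protein related to SCARB1, fell by 1.03 from C1 to C2 stage (SE 0.20, adjusted p = 0.000530). Its difference of C2 from NC1 was -0.82 (adjusted p = 0.00339), and that call was lost without C2 replicate 3 (-0.72, adjusted p = 0.0121) or C2 replicate 4 (-0.75, adjusted p = 0.0106). Outside the rule for named genes, and named after its value was seen, LRP10 rose by 0.88 against NC1. The median of the list was -0.87 between C2 and C1 and -0.75 between C2 and NC1, beside 0.02 and 0.11 over all valid probes.

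In the list of lysosomal and intracellular cholesterol transfer, 4 of 19 tested genes rose at C2 stage against C1 and 2 fell. These were 31.6% of the tested genes, and 26.3% passed against NC1, beside 28.1% of all valid probes in both comparisons. CAV1, the coat protein of caveolae, changed most of all, from means of -0.37 at NC1 and -0.36 at C1 to 6.55 at C2 stage. Its C2 arrays were at 5.73, 7.18, 6.77, 6.95 and 6.12, all above all others, and the difference from C1 was 6.91 (SE 0.51, adjusted p = 8.36e-09). STARD5, a cytosolic sterol carrier, rose by 2.50 (SE 0.26, 5.66-fold, adjusted p = 5.38e-07) and OSBP, an oxysterol-binding exchanger between endoplasmic reticulum and Golgi, by 1.00 (SE 0.17, adjusted p = 0.000157). Of the related proteins, OSBPL5 fell by 1.59 (SE 0.25, adjusted p = 5.08e-05) and OSBPL10 by 1.29 (SE 0.30, adjusted p = 0.00195). OSBPL9, outside the rule and named after its value was seen, rose by 0.96. Against NC1, 3 rose and 2 fell. STAR had a mean difference of 2.17 from C1 with an SE of 1.35 (adjusted p = 0.212), since the C2 arrays were at 7.66, -0.94, 0.87, -0.04 and 8.19.

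In the list of cholesterol ester storage and hydrolysis, 2 of 12 tested genes rose at C2 stage against C1 and none fell by limma. The 2 were 16.7% of the tested genes, and 33.3% passed against NC1, beside 28.1% of all valid probes in both comparisons. At an unadjusted p under 0.05 1 gene was lower, CES1, outside the rule and named after its value was seen. It differed by -2.47 from C1 (adjusted p = 0.0120), with C2 arrays at -1.57, 3.36, 3.80, 3.41 and -0.18, all below all C1 arrays. Those that rose were PLIN2, the coat protein of lipid droplets, by 3.20 (SE 0.36, 9.21-fold, adjusted p = 1.69e-06), and ABHD5, the co-activator of the droplet lipase, by 1.51 (SE 0.25, 2.84-fold, adjusted p = 0.000115). All C2 arrays of both genes lay above all C1 and NC1 arrays. Against NC1 4 genes rose and none fell, again with 1 lower at an unadjusted p under 0.05. They were PLIN2 by 2.52 and ABHD5 by 1.42, with CIDEB, another droplet protein, by 0.66 (adjusted p = 0.00319) and M6PRBP1, the array's name for the droplet protein PLIN3, by 1.15 (adjusted p = 0.00722). Without C2 replicate 4 that of CIDEB was 0.58 and did not pass (adjusted p = 0.0104). M6PRBP1 lies outside the rule and was named after its value was seen.

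In the list of cholesterol export and lipoprotein particles, 5 of 24 tested genes rose at C2 stage against C1 and 2 fell. These were 29.2% of the tested genes, and 25% passed against NC1, beside 28.1% of all valid probes in both comparisons. NR1H3, the oxysterol receptor LXR alpha that drives transcription of ABCA1 and ABCG1, rose by 1.81 (SE 0.18, 3.51-fold, adjusted p = 3.8e-07), with all C2 arrays above all others. PPARG, a fatty acid receptor known to act on NR1H3, fell by 2.20 (SE 0.32, 4.61-fold lower, adjusted p = 2.55e-05), with C2 arrays at 3.42, 4.54, 5.22, 5.52 and 3.43. LCAT, which esterifies the cholesterol of high-density lipoprotein, rose by 1.12 (SE 0.18, adjusted p = 8.73e-05). The lipoprotein constituents APOA2 and APOM rose by 1.27 (SE 0.31, adjusted p = 0.00316) and by 1.01 (SE 0.24, adjusted p = 0.00264). Outside the rule, and named after their values were seen, APOO rose by 0.79 and the exporter ABCG4 fell by 0.88. Against NC1, 5 genes rose and 1 fell. For APOA2 scan day 1 alone gave 0.63 (adjusted p = 0.243) against C1, and without C2 replicate 3 the difference was 1.1 and did not pass (adjusted p = 0.0116). For APOM scan day 1 alone gave 0.72 against C1 and did not pass (adjusted p = 0.109).

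**Figure D4:**
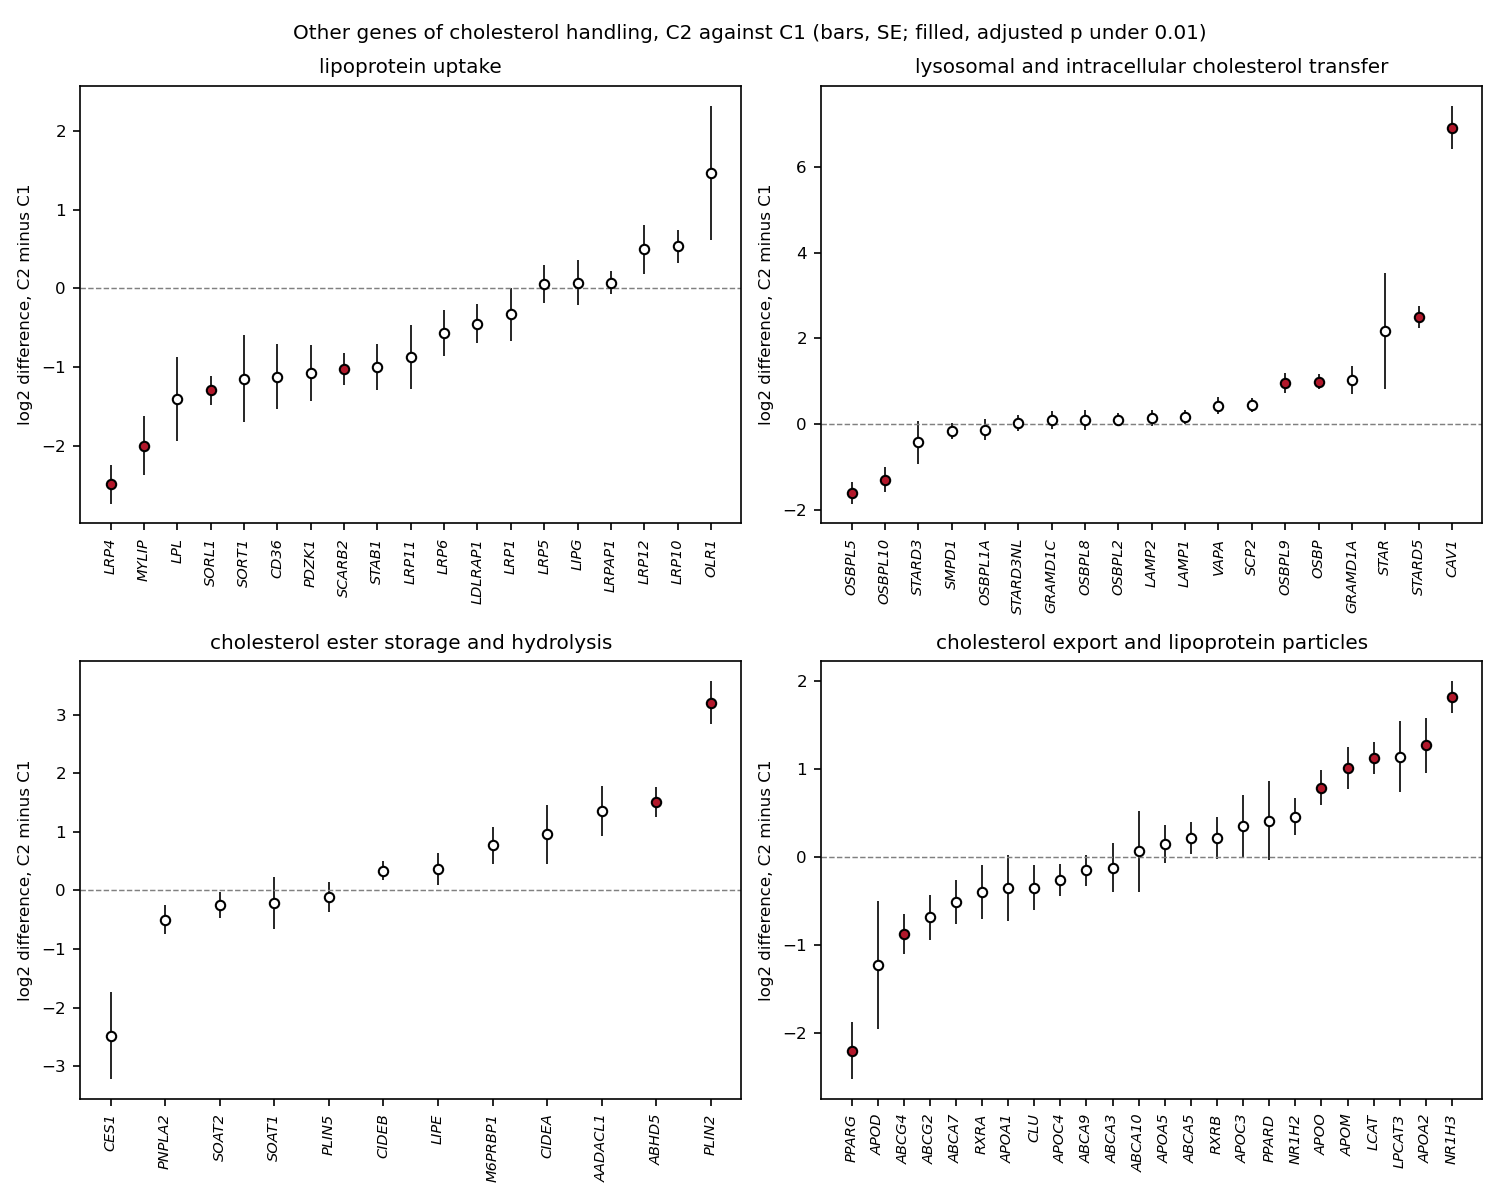
Log2 difference between C2 and C1 (vertical axis) with its SE for the 74 genes with a valid probe in 4 lists of cholesterol handling, ordered within each list, filled where the adjusted p was under 0.01. CAV1 at 6.91 and PLIN2 at 3.20 lie highest in their lists, and LRP4 at -2.49 and PPARG at -2.20 are the lowest filled points.

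The genes whose profile over the 17 arrays was most like that of a member were sought among 11468 valid probes with a gene symbol, by the SD of the difference of the log2 signals. For SCARB1 they were L3MBTL3, a chromatin protein, with an SD of 0.50, and TIMP2, an inhibitor of metalloproteinases, with 0.51, where SCARB1 itself had an SD of 1.53. Their means at NC1, C1 and C2 were 3.50, 3.86 and 6.15 for L3MBTL3 and 7.20, 7.24 and 10.3 for TIMP2. For the brighter LIPA probe they were TSSK3, a testis kinase, and RAB5IF, both with an SD of 0.25 where LIPA had 0.41. These are the closest profiles of many and say nothing of a shared function.

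Markers of other cells were read beside these results. For the counts that follow, 15.3% of all valid probes rose and 12.8% fell at C2 stage against C1, and 15.5% and 12.6% against NC1. Of 14 leukocyte and macrophage markers tested, 5 rose at C2 stage against C1 (CD14, TYROBP, CD53, LCP1 and LAPTM5) and 1 against NC1, and none fell by limma or was lower at an unadjusted p under 0.05. At that p 10 of the 14 differed against C1 and 3 against NC1, beside 6787 and 6731 of the 13865 valid probes in either direction. Their summed scaled signal over the 20 markers on the array was 35.6 to 76.7 on the NC1 arrays, 28.6 to 46.8 on the C1 arrays and 19.6 to 124 on the C2 arrays. By C2 replicate it was 90.3, 19.6, 42.4, 49.0 and 124. Of the 20 markers, 13 were well above background on every NC1 array and 14 on every C1 and on every C2 array, among them CD14, CD68 and CD163. MARCO was not well above background on any array, and ITGAM on 1 C2 array and no other. The sum of 11 endothelial markers was 3.32 to 5.38 at NC1, 2.96 to 4.57 at C1 and 5.73 to 12.7 at C2 stage, with 1 of 7 tested, KDR, rising at C2 stage against C1 and against NC1. The other tested endothelial markers did not pass against C1, and TEK fell against NC1 by 1.61 (adjusted p = 1.85e-05). The median of the 7 was -0.11 against C1 and -0.29 against NC1, and CDH5 and EMCN were not well above background on any array. CAV1 is known as abundant in endothelium. The sum of 14 theca and stroma markers was 240 to 439 at NC1, 244 to 379 at C1 and 336 to 608 at C2 stage. Of 10 tested, 2 rose at C2 stage against C1 (COL1A1 and LUM) and 1 fell (MYH11). Against NC1 1 rose (LUM) and 1 fell (MYH11). LUM rose by 3.79 against C1, while the median of the 10 was -0.27 against C1 and -0.13 against NC1. The sum of 11 oocyte markers was 57.5 to 137 at NC1, 5.07 to 51.9 at C1 and 3.39 to 7.86 at C2 stage, and all 3 tested fell at C2 stage against NC1. Of 4 red blood cell markers the sum stayed between 0.51 and 0.78 on all arrays. Among 7 tested markers of luteinising granulosa cells, a list that holds STAR and PLIN2, 3 rose at C2 stage against C1, and their sum was 4536 and 4600 in C2 replicates 1 and 5 and 388 to 1221 in the others. The sum of the granulosa and cumulus markers was 2758 and 2506 in C2 replicates 1 and 5 and 4837 to 8845 in the others, and 8 of 14 fell against C1. The part of these cells in the values of the members was not tested.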

How the data were processed

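Total RNA of 17 cow samples was measured on Agilent 1-colour arrays, from 0.35 μg of RNA labelled with Cy3. The authors deposited linear intensity values per spot from Feature Extraction 10.5.1.1 (submitters' processing notes), corrected for background and not scaled between arrays. They also deposited a table of log2 values scaled by each array's median. It was made, as the methods describe, in GeneSpring, and serves here as an alternative and for probe sequences. No spot was saturated.

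From the spots, log2 signals of a probe were averaged, leaving out spots marked as non-uniform or outlying, and centred on the array's median. Presence on an array required 50% or more of a probe's spots to be uniform, unsaturated and well above background. Valid probes, as in the methods, were present on 80% or more of each stage's arrays. Groups come from the labels. The stages were fitted together in limma 3.58.1 (statmod 1.5.0, R 4.3.3) with lmFit and eBayes, and p was adjusted by Benjamini-Hochberg over all 13865 valid probes for each comparison, with a threshold of 0.01. Single differences were also tested by a 2-sided exact permutation of the arrays. The fit was tested on simulated data. Other steps used Python 3.11.15 with numpy 2.4.6, pandas 2.3.3, scipy 1.17.1 and matplotlib 3.10.9.

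Symbols come from the array's design, or from RefSeq through its accession or gene number. A gene is given by its brightest valid probe. Named are all members, in each list up to 5 genes past the moderated F with the largest difference between C2 and C1, STAR, and the 2 closest profiles of each member past the F. The members and lists were chosen with earlier results of these data known. A gene of the uptake list is not reported here and is in none of the counts. No coordinates are given, since no build is named. Alternatives were another scaling (75th percentile, quantile), normexp background correction (offset 50), other filters, array weights, and the replicate number, slide or scan day as a block. Further ones were averaged close C2 replicates, the deposited table, the mean of a gene's probes, and each array left out. The methods' one-factor test was another, joined by ordinary t-tests between pairs of stages, which the methods do not name. Each scan day alone, and all fits of ABCA1 beside the one without a filter, were chosen after seeing the data.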

Additional observations from a re-analysis of the deposited data

Results flagged for a closer look

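Among the members and named genes, 3 of 87 groups of arrays held 1 array far from the others by Dixon's criterion, a number that chance alone can give, since it marks about 1 group in 20. LRP8 was at 5.48 on the array of C1 replicate 5, with the other C1 arrays between 3.53 and 3.82. OSBP was at 2.35 on that of C1 replicate 6, with the others between 1.68 and 1.91. PPARG was at 6.17 on that of C1 replicate 5, with the others between 6.62 and 6.88. Without C1 replicate 5, LRP8 differed by -0.32 between C2 and C1.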

How the results depend on the processing

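Of the member genes, 1 passed between C2 and C1 (1 to 2 with one array left out, the 2 without C2 replicate 2), but 2 without a filter, which adds ABCA1, and 2 on scan day 2 alone. Between C2 and NC1 2 passed (2 to 3), but 1 on scan day 1 alone. For C1 against NC1 0 passed (0 to 0), but 1 with array weights. By the moderated F 2 passed (2 to 3), but 1 with 75th percentile scaling, 1 with the replicate block, 1 with close C2 replicates averaged and 1 on scan day 1 alone. Of the 74 pathway genes, 19 (18 to 21), 21 (19 to 24), 0 (0 to 0) and 20 (17 to 22) passed in the same order of comparisons, but 7, 7 and 7 on scan day 1 alone in those with C2 and in the F, and 1 between C1 and NC1 on scan day 2 alone. Of the named pathway genes, SORL1, SCARB2, OSBPL5, OSBPL10, OSBP, ABHD5, APOA2, LCAT and APOM lost their call against C1 on scan day 1 alone. Their signs stayed, and their adjusted p there ran from 0.0131 to 0.243. A single scan day holds fewer arrays.

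The replicate numbers do not pair the samples, since each stage came from different animals. Of 16 same-numbered pairs of arrays, 4 correlated over 0.1, and the correlations of all 16 ran from -0.32 to 0.25. With the replicate block 17 and 16 pathway genes passed against C1 and NC1.

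Of single values, 1041 kept their sign and call under the other alternatives, and 65 lost a call, 6 gained one and 23 changed sign. With one array left out these were 1107, 21, 6 and 22. None of the differences that changed sign was past the threshold at the main setting. VLDLR between C1 and NC1 was 0.29 with normexp, 0.011 with array weights, 0.21 on scan day 2 and -0.11 to 0.074 with one array left out. LRP8 against C1 was 1.21 on scan day 2, and against NC1 1.60 there, 0.11 with normexp and -0.52 to 0.35 with one array left out. ABCG1 against C1 was 0.050 with close C2 replicates averaged, 0.037 on scan day 2 and -0.21 to 0.029 with one array left out. NPC1 against C1 was -0.051 on scan day 1, and between C1 and NC1 it was -0.014 with quantile normalization, -0.071 on scan day 2 and -0.074 to 0.12 with one array left out. NPC2 against NC1 was -0.063 with 75th percentile scaling, -0.15 with quantile normalization and -0.029 to 0.28 with one array left out, and between C1 and NC1 0.10 with normexp and 0.016 on scan day 1. APOE against C1 was 0.28 with array weights, 0.0023 on scan day 1 and -0.29 to 0.064 with one array left out, and between C1 and NC1 0.040 with normexp. STAR against NC1, 0.09 at the main setting, was -0.058 with 75th percentile scaling, -0.048 with quantile normalization, -0.13 with the scan day block, -0.59 with close C2 replicates averaged, -2.19 on scan day 2 and -1.17 to 1.11 with one array left out. The cause was not tested.

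The 75th percentile scaling moved the median of all valid probes from 0.02 to -0.11 between C2 and C1 and from 0.11 to -0.04 between C2 and NC1. The fit of the array weights stopped before it converged. Probes near background, as that of ABCA1, carry less certain differences.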
